A study of Mus musculus with 8 samples.

Results

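Marker genes of recruited and activated macrophages were followed in mouse liver RNA. They are Gpnmb, Cd68, Lyz1, Lyz2, Chil3, Lgals3, Trem2, Ccr2, Itgam and Itgax. They were chosen by name, with earlier results of these data known. Every non-control probe whose gene name, or current symbol by its accession, was among these names was taken, which gave 15 of the 41174 probes, for 10 of 27599 genes. All 15 were among the 33335 probes bright enough to test. Gpnmb, Lyz2, Trem2, Itgam and Itgax had 2 probes each and the other 5 genes had 1. Where a gene is described by 1 value, it is that of its brighter probe.

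The liver holds resident Kupffer cells, which line the sinusoids and renew themselves, and it receives monocytes from the blood when tissue is injured or infected. Recruited monocytes enter through chemokine signals such as Ccl2 acting on Ccr2, attach through integrins, and turn into macrophages. When these cells take up dying cells and lipid they fill with lysosomes and switch on genes such as Gpnmb, Cd68, Trem2 and Lgals3. Several of these markers are not limited to macrophages: Itgam and Lyz2 are also made by neutrophils, Chil3 by neutrophils and their precursors, and Itgax by dendritic cells.

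The mice were ICR scid, aged 8 weeks, a strain whose scid mutation leaves it without mature T and B cells. Liver RNA was hybridised on 8 two-colour arrays, 2 for each of 4 comparisons. The treated mice were males 3 days after Adeno-Cux2 (11 mice) or Adeno-CMV (11 mice), males 5 days after Adeno-Cux2 (12 mice) or Adeno-CMV (13 mice), and females 5 days after Adeno-Cux2 (8 mice) or Adeno-CMV (7 mice). The virus Adeno-Cux2 delivers Cux2, a homeobox transcription factor, and the virus Adeno-CMV serves as its control, so both treated groups of a comparison had received a virus. Untreated males (10 mice) were compared with untreated females (10 mice). Each array held 1 pool of 3 to 7 mice in each dye, with the dyes reversed on the second array. The 16 pools therefore give n = 2 arrays per comparison, and the errors describe the spread between pools and not between mice. Ratios are of Adeno-Cux2 over Adeno-CMV, or of untreated male over untreated female, on the log2 scale, so that 1 is a doubling.

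All 8 arrays lay on 2 slides, with the untreated mice and the males at day 5 together on 1 of them and the males at day 3 and females at day 5 on the other. Cux2 itself was measured by a pair of probes. By the probe A_51_P180463 its ratio was 0.49 ± 0.09 in males at day 3 and 0.60 ± 0.09 in males at day 5 (moderated standard error, n = 2 arrays each). Here and below, the spread behind such errors was estimated over all 8 arrays together and does not describe the 2 arrays of 1 comparison. In females at day 5 the ratio was −0.61 ± 0.09, so Cux2 was lower in the pools labelled Adeno-Cux2, against their label. The other probe gave −0.33 ± 0.07 there. Without virus Cux2 was lower in males than in females, with −1.88 ± 0.09 and −1.31 ± 0.07 by these probes. Whether these probes lie within the sequence the virus carries is not known here, and the virus groups are named by their labels throughout. The hepatocyte markers on the array stood between the 94.9th and the 100th percentile of signal among 22226 genes. Spots well above background made up 68.2% to 76.7% of spots in green and 71.7% to 80.1% in red, and no spot of the 15 probes was saturated.

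Promoter sequences are shown as examples for the pair of lysozyme genes, which are neighbours on chromosome 10, and for Cd68 and Itgam. They are the 250 bases before the start that RefSeq's promoter table on GRCm38.p6 uses for each gene, read along the strand of the gene, and a promoter was found for all 10 genes. For Ccr2 and Itgax that start lies inside the annotated span of the gene. Capitals mark matches to short motifs searched on both strands, with N any base. They are GAGGAA (or TTCCTC), a core bound by the myeloid factor PU.1, and loose forms of other sites. The loose forms are TGANTCA for AP-1 and TCANGTG for MITF and TFE factors. The Lyz1 promoter lies at chr10:117292869-117293118 and the Lyz2 promoter at chr10:117282273-117282522, both on the − strand. The Cd68 promoter lies at chr11:69666171-69666420 on the − strand, and that of Itgam at chr7:128062390-128062639 on the + strand.
Lyz1: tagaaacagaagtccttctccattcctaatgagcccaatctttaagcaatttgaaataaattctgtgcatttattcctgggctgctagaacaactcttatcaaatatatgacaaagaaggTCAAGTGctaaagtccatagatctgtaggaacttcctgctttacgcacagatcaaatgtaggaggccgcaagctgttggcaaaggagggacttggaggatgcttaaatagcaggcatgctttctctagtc
Lyz2: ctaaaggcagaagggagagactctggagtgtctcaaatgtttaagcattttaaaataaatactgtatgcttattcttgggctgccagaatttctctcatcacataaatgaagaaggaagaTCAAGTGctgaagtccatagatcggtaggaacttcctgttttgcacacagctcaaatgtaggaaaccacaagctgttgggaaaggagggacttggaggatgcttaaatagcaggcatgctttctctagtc
Cd68: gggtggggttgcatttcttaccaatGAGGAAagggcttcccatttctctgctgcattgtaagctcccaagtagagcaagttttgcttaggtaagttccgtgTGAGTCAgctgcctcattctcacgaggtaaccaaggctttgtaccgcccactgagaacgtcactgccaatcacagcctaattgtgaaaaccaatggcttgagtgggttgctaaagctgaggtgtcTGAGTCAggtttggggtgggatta
Itgam: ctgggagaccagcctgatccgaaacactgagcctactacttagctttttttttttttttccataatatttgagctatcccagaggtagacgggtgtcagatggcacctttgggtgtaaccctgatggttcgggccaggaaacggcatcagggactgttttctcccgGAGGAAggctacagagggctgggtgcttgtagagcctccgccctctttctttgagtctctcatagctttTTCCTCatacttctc

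Lyz1 and Lyz2 carried TCAAGTG at the same place, 130 bases before the start. From there to the start 92.3% of their bases were the same, and the last 50 bases were identical. The PU.1 core was present in 3 of the 10 promoters (Cd68, Trem2 and Itgam), against 23.3% of 32851 mouse promoters of this length. The AP-1 letters were present in 3 (Cd68, Trem2 and Itgax), against 6.75% of all promoters, and the MITF and TFE letters in 3 (Lyz1, Lyz2 and Lgals3), against 12.2%. The MITF and TFE letters matched as TCAAGTG in Lyz1 and Lyz2 and as TCAGGTG in Lgals3. Trem2 matched the AP-1 letters as TGAATCA. Whether the factors bind these forms is not known here. All matches describe letters only, and binding was not measured.

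All 10 genes were higher in the pools labelled Adeno-Cux2 in males at day 3, in males at day 5 and in females at day 5. By limma's moderated test with Benjamini-Hochberg adjustment over all 33335 probes, 13 of 14 probes were called higher at an adjusted p under 0.05 in each of these comparisons, and none was called lower. The 15th, the dimmer Gpnmb probe, is not counted, since it passed the filter on brightness only through the pools labelled Adeno-Cux2. Of all probes tested, 22.8%, 12.0% and 11.2% were called higher in these 3 comparisons, and 20.1%, 4.78% and 6.20% were called lower. In males at day 3 these were 7615 probes higher and 6696 lower, against 8793 and 3906 with median centring in place of loess and 6301 and 7505 from the scanner software's log ratios. Counted by genes, 23.9%, 13.8% and 12.7% were called higher and 20.3%, 4.82% and 6.25% lower. The median over the 10 genes was 1.59 in males at day 3, 1.84 in males at day 5 and 1.62 in females at day 5, while the median over all genes was within 0.01 of 0 in each. A rise of 2-fold or more was reached by 9 genes at day 3, and at day 5 by 10 genes in males and by 7 in females, where 4.79%, 3.00% and 1.53% of all genes did so. Of the 14 the dimmer Itgax probe was not called in any comparison. In whole-liver RNA, more macrophages, more RNA of these genes per macrophage and RNA from other cells that make them cannot be told apart. Because the 10 genes were chosen with earlier results of these data known, the shares of all genes are no test of the set.

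**Figure D1:**
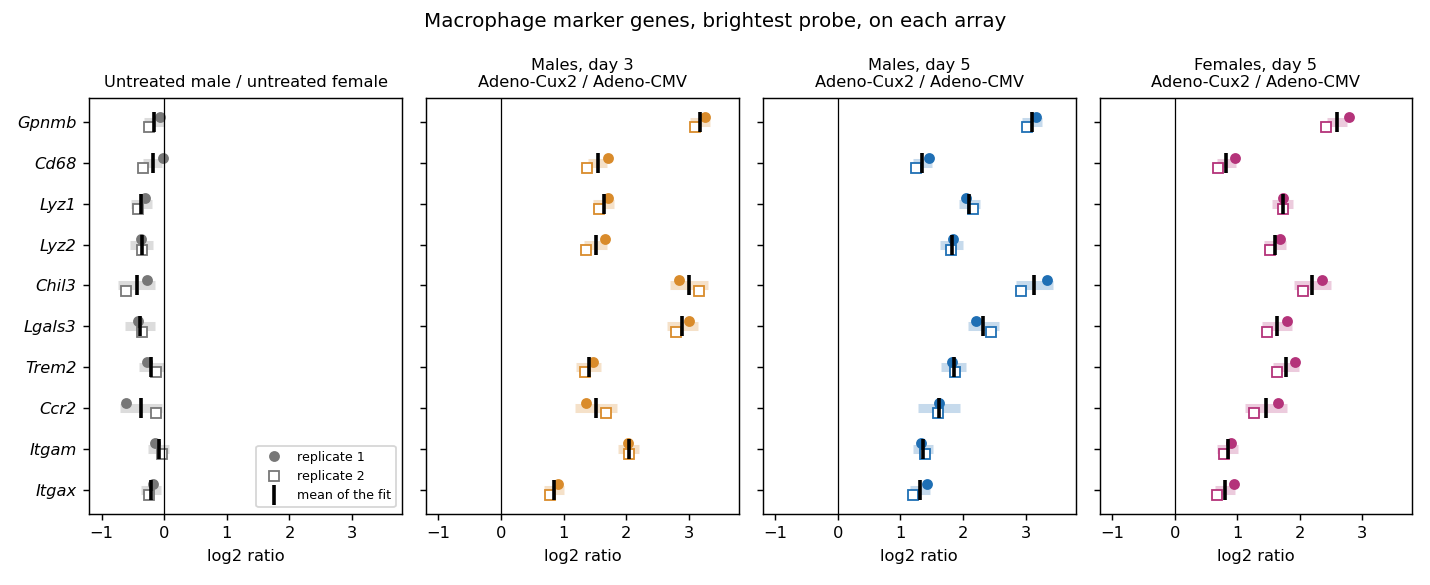
Log2 ratio (horizontal axis) of the 10 macrophage marker genes on each array, in 1 panel per comparison. Filled circles are replicate 1, open squares replicate 2, black ticks the fitted mean and shaded bars its 95% interval. Both arrays lie right of 0 for every gene in the 3 Adeno-Cux2 over Adeno-CMV panels, between 0.67 and 3.35, and left of 0 in the untreated panel.

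Gpnmb, a transmembrane glycoprotein of lysosomes and phagosomes that macrophages make in abundance when loaded with lipid or debris, had ratios of 3.26 and 3.09 in males at day 3. Its ratios at day 5 were 3.17 and 3.03 in males, and 2.78 and 2.42 in females. The fitted changes were 3.17 ± 0.07 (9.03-fold, adjusted p = 9.25e-06), 3.10 ± 0.07 (8.58-fold, adjusted p = 2.42e-05) and 2.60 ± 0.07 (6.06-fold, adjusted p = 4.81e-05), in the same order. Their size depended on the processing. Under other ways of processing the arrays they lay between 2.22 and 3.49, 1.88 and 3.73, and 1.75 and 2.91. Gpnmb was called in all of these. It ranked 20th, 12th and 10th from the top of 33335 probes in these comparisons. This probe, A_51_P438967, lies at chr6:48985973-48986032 of mm8, the build of the array's annotation, on the + strand.

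Cd68, a lysosomal membrane glycoprotein of the LAMP family found in macrophages generally, moved less. Its ratios were 1.71 and 1.38 in males at day 3, 1.45 and 1.25 in males at day 5, and 0.96 and 0.69 in females at day 5. All 6 arrays were above 0, and every female value was below every male value. The model gave changes of 1.54 ± 0.06 (2.91-fold, adjusted p = 1.56e-05), 1.35 ± 0.06 (2.55-fold, adjusted p = 6.84e-05) and 0.82 ± 0.06 (1.77-fold, adjusted p = 4.99e-04). The Cd68 probe lies at chr11:69481007-69481066 of mm8 on the − strand.

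Lyz1 and Lyz2 encode lysozymes that cleave bacterial cell walls, Lyz2 being the form of macrophages, monocytes and neutrophils and Lyz1 that of intestinal Paneth cells. For Lyz1 the ratios were 1.71 and 1.57 in males at day 3, 2.05 and 2.16 in males at day 5, and 1.72 and 1.73 in females at day 5. For the brighter Lyz2 probe, A_52_P238027, they were 1.67 and 1.36, then 1.83 and 1.81, then 1.68 and 1.52. The lysozyme probes thus gave closely similar values in each comparison. The fitted changes of Lyz1 were 1.64 ± 0.07 (3.12-fold, adjusted p = 1.65e-05), 2.10 ± 0.07 (4.29-fold, adjusted p = 5.48e-05) and 1.73 ± 0.07 (3.31-fold, adjusted p = 1.42e-04). Those of Lyz2 were 1.51 ± 0.08 (2.85-fold), 1.82 ± 0.08 (3.53-fold) and 1.60 ± 0.08 (3.04-fold), with adjusted p-values of 2.45e-05, 6.72e-05 and 1.67e-04. The Lyz1 probe lies at chr10:116692308-116692367 and the Lyz2 probes at chr10:116681504-116681563 and chr10:116686229-116686288 of mm8, all on the − strand. Because the genes are close relatives, a Lyz1 probe may also have bound Lyz2 RNA, which was not tested here. On the scale of signal the Lyz2 probe stood at the 97.4th percentile of all genes and the Lyz1 probe at the 90.2nd, while Gpnmb, Itgam and Itgax stood between the 46.8th and the 47.9th.

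Chil3, a secreted chitinase-like lectin also called Ym1 and a mouse marker of alternatively activated macrophages, had ratios of 2.85 and 3.16 in males at day 3. It had 3.35 and 2.93 in males at day 5, and 2.35 and 2.05 in females at day 5. Fitted, these were changes of 3.00 ± 0.13 (8.02-fold, adjusted p = 1.56e-05), 3.14 ± 0.13 (8.81-fold, adjusted p = 6.62e-05) and 2.20 ± 0.13 (4.60-fold, adjusted p = 2.19e-04). Among all probes it was the 10th highest in males at day 5. The probe lies at chr3:106275623-106275682 of mm8 on the − strand.

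Lgals3 encodes galectin-3, a galactose-binding lectin that activated macrophages secrete and that is enriched on damaged phagosomes. It had ratios of 3.00 and 2.79 in males at day 3, 2.20 and 2.44 in males at day 5, and 1.80 and 1.47 in females at day 5. The 3 comparisons did not overlap, with the day 3 arrays highest. As fitted changes these were 2.90 ± 0.10 (7.45-fold, adjusted p = 1.22e-05), 2.32 ± 0.10 (5.00-fold, adjusted p = 6.72e-05) and 1.64 ± 0.10 (3.11-fold, adjusted p = 2.87e-04). The probe is annotated to chr14:46306600-46307416 of mm8 on the + strand, a span of 817 bases.

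Trem2 is a lipid-sensing receptor of macrophages that signals through Tyrobp. Its brighter probe, A_51_P269546, had ratios of 1.46 and 1.33 in males at day 3, 1.83 and 1.88 in males at day 5, and 1.92 and 1.64 in females at day 5. Here the day 3 arrays were the lowest of the 6 and the female arrays overlapped those of males at day 5. The fitted changes were 1.40 ± 0.09 (2.64-fold, adjusted p = 4.30e-05), 1.85 ± 0.09 (3.61-fold, adjusted p = 6.84e-05) and 1.78 ± 0.09 (3.43-fold, adjusted p = 1.69e-04). The probe lies at chr17:47817764-47817823 of mm8 on the + strand.

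Ccr2 is the chemokine receptor through which Ly6C-high monocytes leave the bone marrow and enter inflamed tissue. It had ratios of 1.35 and 1.68 in males at day 3, 1.62 and 1.60 in males at day 5, and 1.65 and 1.26 in females at day 5. The 3 comparisons overlapped. The fitted changes were 1.51 ± 0.14 (2.86-fold, adjusted p = 2.18e-04), 1.61 ± 0.14 (3.05-fold, adjusted p = 4.58e-04) and 1.46 ± 0.14 (2.75-fold, adjusted p = 0.00100). The probe lies at chr9:123957008-123957067 of mm8 on the + strand.

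Itgam (CD11b) and Itgax (CD11c) are integrin alpha chains that pair with Itgb2 and bind complement fragments and adhesion molecules. The brighter Itgam probe, A_52_P669155, had ratios of 2.02 and 2.05 in males at day 3, 1.33 and 1.39 in males at day 5, and 0.91 and 0.78 in females at day 5. The fitted changes were 2.04 ± 0.07 (4.11-fold, adjusted p = 1.11e-05), 1.36 ± 0.07 (2.56-fold, adjusted p = 7.70e-05) and 0.85 ± 0.07 (1.80-fold, adjusted p = 5.82e-04). Itgam was thus highest at day 3. The brighter Itgax probe, A_51_P303424, had ratios of 0.91 and 0.79 in males at day 3, 1.43 and 1.19 in males at day 5, and 0.94 and 0.67 in females at day 5. Its fitted changes were 0.85 ± 0.07 (1.80-fold, adjusted p = 1.12e-04), 1.31 ± 0.07 (2.48-fold, adjusted p = 7.98e-05) and 0.81 ± 0.07 (1.75-fold, adjusted p = 6.39e-04), the smallest of the 10 genes in each of the 3 comparisons. These probes lie at chr7:127909109-127909168 (Itgam) and chr7:127941686-127941745 (Itgax) of mm8 on the + strand.

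The second probes of 5 genes gave a repeat of the measurement on the same arrays. Those of Lyz2 gave ratios that moved together over the 8 arrays, which share pools and labelling (Pearson r = 0.994). The dimmer Lyz2 probe, A_51_P321150, had fitted changes of 1.45 ± 0.12 in males at day 3, 1.81 ± 0.12 in males at day 5 and 1.54 ± 0.12 in females at day 5. The dimmer Trem2 probe, A_51_P269549, had 0.87 ± 0.07, 1.26 ± 0.07 and 1.13 ± 0.07 in the same comparisons (r = 0.967 with the brighter one), all 3 called. The dimmer Itgam probe, A_51_P103007, had 0.99 ± 0.08, 0.63 ± 0.08 and 0.34 ± 0.08 (r = 0.965). It was called in each, with an adjusted p of 0.0246 in females, which was 0.363 without female day 5 replicate 1, 0.0654 without replicate 2, 0.0622 without either male day 5 array and 0.0655 without the dye term. In males at day 5 its adjusted p was 0.00179, and 0.0728 and 0.0584 without replicate 1 and replicate 2 of that comparison.

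The dimmer Gpnmb probe, A_52_P417819, gave far smaller ratios than the brighter one. They were 0.20 and 0.28 in males at day 3, 0.23 and 0.23 in males at day 5, and 0.27 and 0.14 in females at day 5. In the Adeno-CMV pools it was not well above background on any array, so that its change is a lower bound only: at least 1.18-fold in males at day 3, at least 1.17-fold in males at day 5 and at least 1.12-fold in females at day 5. No test is given for it. The scanner software's log ratios, which subtract background in another way, put it at 2.71 in males at day 5 and 2.22 in females at day 5. The dimmer Itgax probe, A_52_P424887, lies 16641 bases before the start of the brighter one on mm8 and was designed on another transcript sequence. Its fitted ratios were 0.01 ± 0.07 in males at day 3, −0.10 ± 0.07 in males at day 5 and 0.07 ± 0.07 in females at day 5, and it ran against the brighter Itgax probe over the 8 arrays (r = −0.90).

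**Figure D2:**
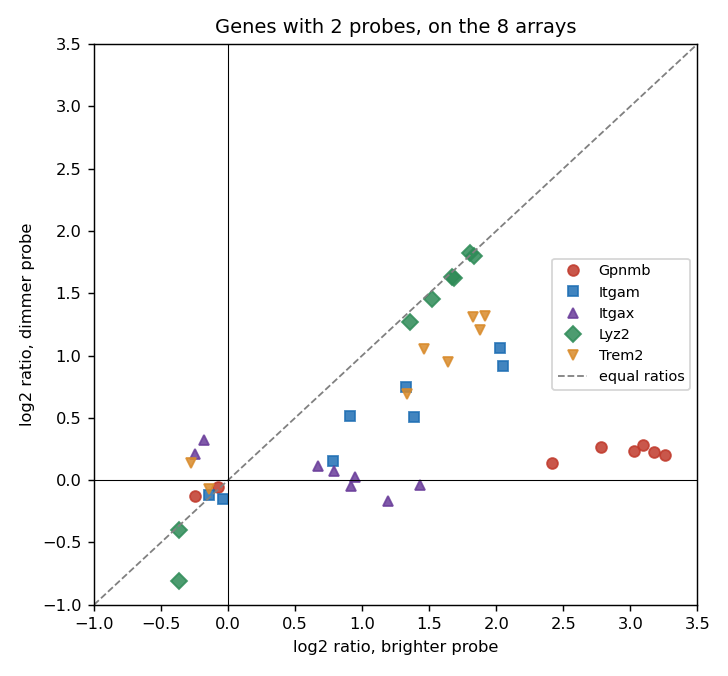
Log2 ratio of the dimmer probe (vertical axis) against that of the brighter probe (horizontal axis) for the 5 genes with 2 probes, 1 point per array, with a dashed line where the ratios are equal. On the 6 virus arrays Lyz2 follows the line, Trem2 and Itgam lie below it, and the dimmer Gpnmb and Itgax probes stay far below the brighter ones, which reach 3.26 and 1.43.

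Levels were also set side by side in all 16 pools as normalized brightness, scaled so that average brightness had the same distribution on every array. For all 10 genes each of the 6 pools labelled Adeno-Cux2 was brighter than each of the 6 labelled Adeno-CMV, which held for 7.32% of all genes. Gpnmb ranged from 1122 to 1970 in Adeno-Cux2 pools, from 137 to 233 in Adeno-CMV pools and from 69.2 to 87.5 in untreated pools. Only 1 untreated female pool and 1 untreated male pool were well above background for it, so its untreated level lay near background. Chil3 ranged from 2984 to 5918 in Adeno-Cux2 pools, from 375 to 1219 in Adeno-CMV pools and from 205 to 322 in untreated pools. For 6 genes (Gpnmb, Chil3, Lgals3, Trem2, Ccr2 and Itgax) every Adeno-CMV pool was in turn brighter than every untreated pool, which held for 11.6% of all genes. Ccr2, for example, lay between 790 and 1781 in Adeno-Cux2 pools, 310 and 606 in Adeno-CMV pools and 143 and 219 in untreated pools. Cd68 and Itgam did not show this second step, as the Adeno-CMV pools of males at day 5 held 620 and 680 for Cd68 and 182 and 181 for Itgam, within or below the untreated range of 640 to 814 and 200 to 222. Adeno-CMV and untreated pools were never on the same array, so the virus and the array cannot be told apart in this second step, and it was given no test. Among Adeno-CMV pools, those of females at day 5 were brighter than those of males at day 5 for 9 of the 10 genes, where 34.1% of all genes did so, among them Chil3 (1070 and 1219 in females, 375 and 391 in males). These lie on different slides. Lgals3 was the gene for which the ranges overlapped, with 2033 and 1445 in females and 1870 and 1698 in males.

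**Figure D3:**
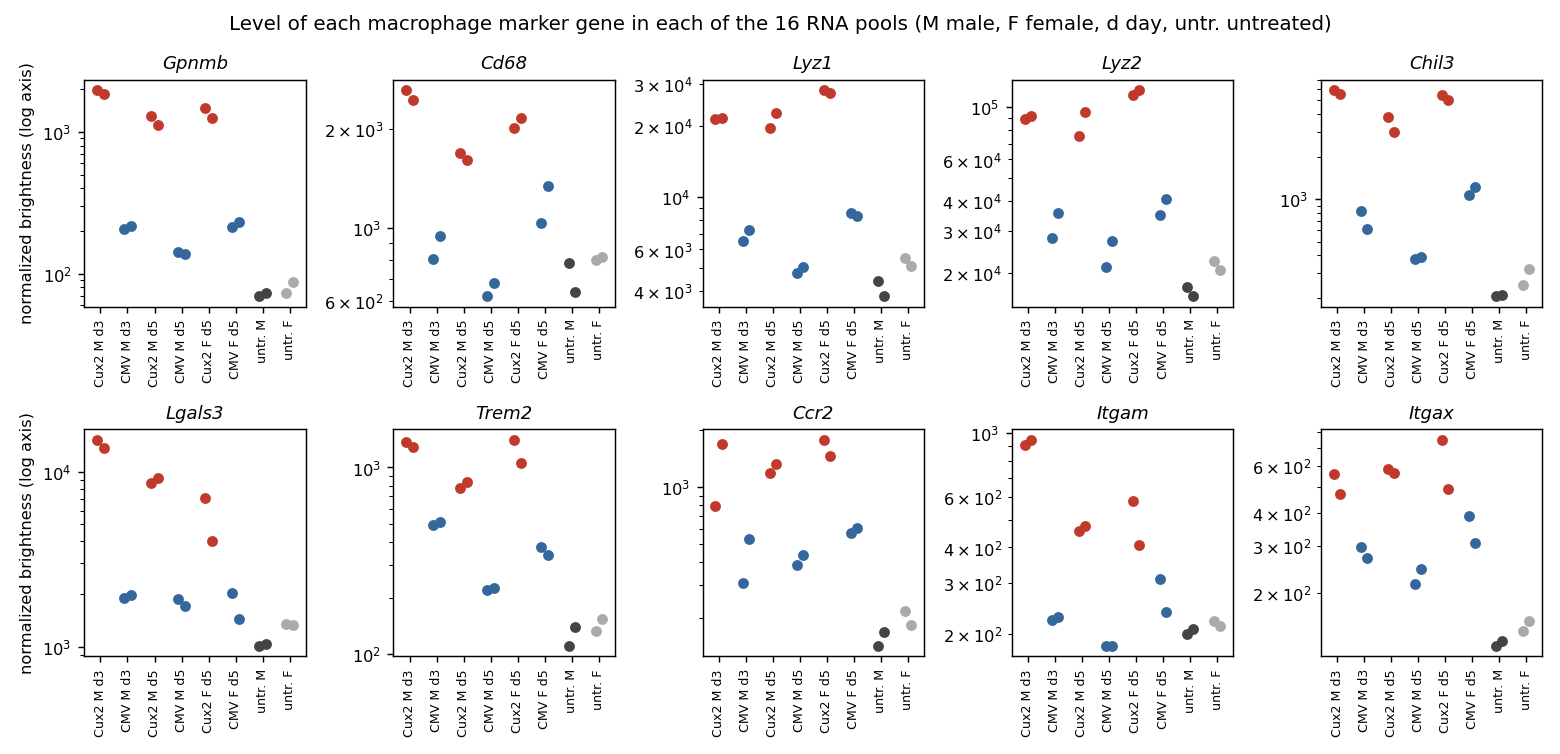
Normalized brightness (vertical log axis, own scale for each gene) of the 10 macrophage marker genes in each of the 16 pools, 2 pools per group. Red points are Adeno-Cux2 pools, blue points Adeno-CMV pools, dark grey untreated males and light grey untreated females. In every panel the 6 red points lie above the 6 blue ones.

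The response of males at day 5 was set against that of males at day 3 as a difference of log2 ratios in the same model. Of the 14 probes 4 were called, 2 higher at day 5 and 2 lower, where 7.25% of all probes were called higher and 4.81% lower (8.15% and 4.90% counted by genes). Over all probes these were 2416 higher and 1602 lower, against 961 and 1875 with median centring. Itgam was lower at day 5, with ratios of 1.33 and 1.39 at day 5 against 2.02 and 2.05 at day 3 (difference −0.68 ± 0.10, adjusted p = 0.00831). Lgals3 was lower too, with 2.20 and 2.44 at day 5 against 3.00 and 2.79 at day 3 (difference −0.57 ± 0.15, adjusted p = 0.0492). Itgax was higher at day 5 (difference 0.46 ± 0.10, adjusted p = 0.0261, and 0.0677 without the dye term), as was Lyz1 (difference 0.46 ± 0.10, adjusted p = 0.0290). In each of these 4 the arrays of day 5 and day 3 did not overlap. Without any one of the 4 male arrays none of these calls held, the adjusted p-values lying between 0.0513 and 0.35. The Lgals3 call also ended without either untreated array (adjusted p = 0.0512), and Trem2 (0.45 ± 0.12, adjusted p = 0.0558) was called without either untreated array (0.0372) or either female array (0.0481). The dimmer Itgam probe (−0.36 ± 0.11, adjusted p = 0.0765) was called without either untreated array (0.0480). Gpnmb, Chil3 and Ccr2 were not called, with 95% intervals of −0.30 to 0.16, −0.28 to 0.56 and −0.38 to 0.57. Day and slide cannot be told apart, since the day 5 arrays lay on one slide and the day 3 arrays on the other.

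In females at day 5 the brighter probe of every gene had a smaller ratio than in males at day 5, with a median difference of −0.50 against −0.01 over all genes. None of the 14 probes passed the test of that difference by limma, where 0.0540% of all probes were called higher and 0.147% lower (0.0405% and 0.184% by genes). At an unadjusted p under 0.05 there were 8 of the 14, all lower in females, where 6.72% of all probes were lower and 3.34% higher. They were the brighter probes of Gpnmb, Cd68, Lyz1, Chil3, Lgals3, Itgam and Itgax and the dimmer Itgam probe. Chil3 had the largest difference, with 2.35 and 2.05 in females against 3.35 and 2.93 in males (−0.94 ± 0.18, 95% interval −1.36 to −0.52, adjusted p = 0.112). Without either male day 3 array, which are in neither group, its adjusted p was 0.0417. The intervals of Trem2 (−0.36 to 0.21), Ccr2 (−0.63 to 0.32) and Lyz2 (−0.47 to 0.04) included 0. A smaller ratio was not always a lower level. By geometric mean brightness in Adeno-Cux2 pools at day 5, only Lgals3 of the 10 genes was lower in females (5335 against 8918 in males). For Gpnmb, Itgam and Itgax the single pools overlapped. How many of all genes were brighter in these female pools was not counted, so this is no result about the 10 genes. Chil3 had 5251 in females against 3376 in males, and 1142 against 383 in Adeno-CMV pools. Sex and slide cannot be told apart here, and Cux2 was lower in the female pools labelled Adeno-Cux2, as given above.

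**Figure D4:**
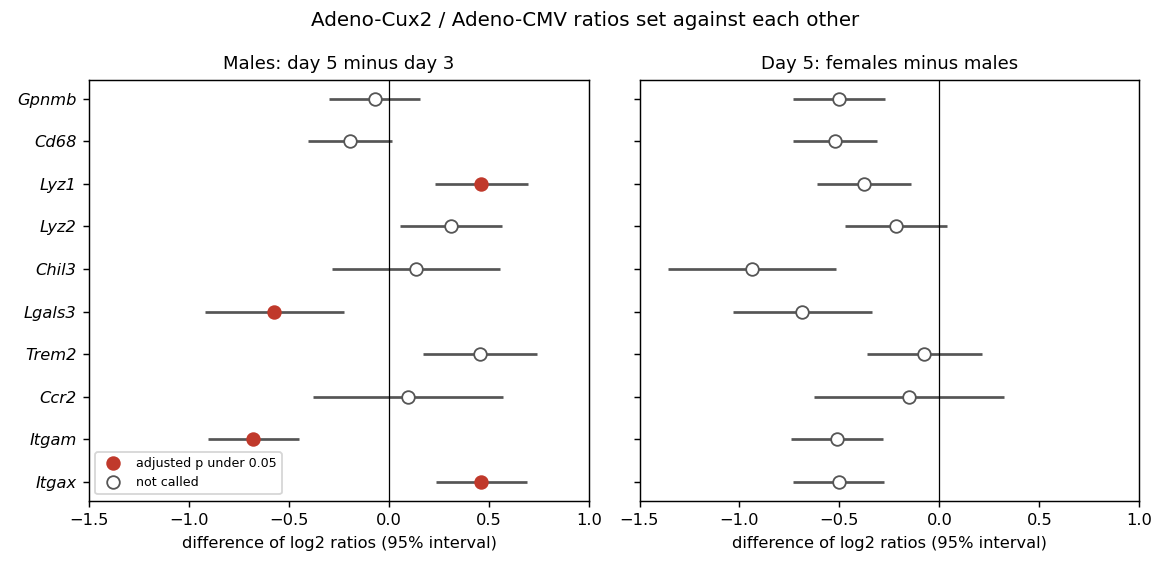
Difference between comparisons of the log2 ratio of the 10 genes (horizontal axis), with 95% intervals as lines. The left panel sets males at day 5 against males at day 3 and the right panel females at day 5 against males at day 5, and filled red points passed the test. In the left panel Lyz1 and Itgax lie right of 0 and Lgals3 and Itgam left of it, and in the right panel all 10 points lie left of 0, between −0.94 and −0.08, with none called.

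In untreated mice Lyz1 and Lyz2 were called lower in males than in females, and the other 8 genes were not called. The fitted ratios of the 10 genes had a median of −0.29 and a range of −0.44 to −0.09. Both arrays of each gene were below 0, which held for 31.4% of all genes. The dimmer Itgax and Trem2 probes had 0.27 ± 0.07 and 0.03 ± 0.07. Called lower were 3 probes, those of Lyz1 and Lyz2, where 5.07% of all probes were called lower and 4.71% higher (6.04% and 4.84% by genes). Lyz1 had ratios of −0.32 and −0.42 (−0.37 ± 0.07, 1.29-fold lower, adjusted p = 0.0229) and the brighter Lyz2 probe −0.36 and −0.36 (−0.36 ± 0.08, 1.29-fold lower, adjusted p = 0.0313). The dimmer Lyz2 probe had −0.81 and −0.40 (−0.61 ± 0.12, adjusted p = 0.0287). These calls ended without untreated replicate 1 (adjusted p of 0.135, 0.323 and 0.327 for Lyz1 and the brighter and dimmer Lyz2 probes), without either male day 5 array (0.0529, 0.0753 and 0.0719), and for Lyz1 without untreated replicate 2 (0.0852). Chil3 had −0.27 and −0.61 (adjusted p = 0.0732), and −0.44 was called without either male day 3 array (0.0182). Ccr2 had −0.62 and −0.14 (adjusted p = 0.144). Of the 12 Kupffer cell markers 5 were called lower in untreated males (median −0.41), of 12 neutrophil markers 4 (median −0.18) and of 21 lysosome and phagocyte genes 7 (median −0.28), and none of these was called higher. With untreated replicate 1 left out these counts became 1, 0 and 0. With one of the male day 5 arrays left out they became 3, 4 and 1, whichever it was. Without untreated replicate 2 the Kupffer count was 3, and without either male day 3 array the lysosome count was 3. The summed brightness of the neutrophil markers was 3309 and 3594 in untreated males, against 5298 and 5321 in untreated females. Their part in the ratios of the 10 genes was not tested.

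Other genes of the same processes were counted in lists, by the brightest probe of each gene. Among all genes 23.9% were called higher in males at day 3, 13.8% in males at day 5 and 12.7% in females at day 5. Called lower were 20.3%, 4.82% and 6.25% in the same order. The counts of every list stand beside these shares. Of 16 genes for the recruitment of monocytes, chemokines, their receptors and adhesion molecules, 15 were called higher in males at day 3, 14 in males at day 5 and 7 in females at day 5, with medians of 1.26, 1.01 and 0.49. Ccl2, the main ligand of Ccr2, rose by 2.69 ± 0.19 in males at day 3 (adjusted p = 7.21e-05) and by 1.74 ± 0.19 in males at day 5 (adjusted p = 0.00118). Ccl7, a further ligand of Ccr2, rose by 2.33 ± 0.10 at day 3, and Itgb2, the partner chain of Itgam and Itgax, by 1.51 ± 0.07 in males at day 5 and 0.92 ± 0.07 in females at day 5. The count of 14 was 7 without male day 5 replicate 2, and the count of 7 was 4 without female day 5 replicate 1.

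Of 12 genes of Trem2 signalling and lipid-handling macrophages 9 were called higher and 1 lower in males at day 3, 8 higher in males at day 5, and 8 higher and 1 lower in females at day 5, with medians of 1.08, 1.13 and 0.88. Spp1 (osteopontin) rose by 2.22 ± 0.16 in males at day 3 and 2.11 ± 0.16 in females at day 5. Lpl (lipoprotein lipase) rose by 1.45 ± 0.13 in males at day 5 and 2.21 ± 0.13 in females at day 5, and the tetraspanin Cd63 by 1.88 ± 0.09, 1.68 ± 0.09 and 1.49 ± 0.09 in males at day 3, males at day 5 and females at day 5. The call lower in males at day 3 was lost without either array of that comparison. Of 21 lysosome and phagocyte genes 16 were called higher and 2 lower in males at day 3, 14 higher in males at day 5 and 12 higher in females at day 5, with medians of 0.94, 0.93 and 0.66. Without either male day 3 array 1 was called lower there. Among them the endotoxin co-receptor Cd14 rose by 2.80 ± 0.14 in males at day 3 and 1.73 ± 0.14 in males at day 5, and the cathepsin Ctss by 1.40 ± 0.15, 2.18 ± 0.15 and 1.48 ± 0.15 in males at day 3, males at day 5 and females at day 5.

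Macrophage activation genes were more mixed. Of 12, 5 were called higher and 1 lower in males at day 3, 7 higher in males at day 5 (3 without either array of that comparison) and 3 higher in females at day 5. Il1rn, the antagonist of the interleukin-1 receptor, rose by 3.00 ± 0.18 in males at day 3 and 1.65 ± 0.18 in males at day 5. Arg1, an enzyme of alternatively activated macrophages that hepatocytes also make for the urea cycle, fell by 0.76 ± 0.12 on the log2 scale in males at day 3 (−0.79 and −0.74 on the 2 arrays). Nos2, a marker of classical activation, was well above background in 6 of the 16 pools. In males at day 3, 4 of 11 myeloid transcription factors were called higher and 4 lower, where 23.9% and 20.3% of all genes were. Of the same 11, 4 were called higher in males at day 5, and 5 higher and 1 lower in females at day 5. The counts higher were 2 without male day 3 replicate 1, 2 without male day 5 replicate 2 and 1 without either female array, and none was lower without female day 5 replicate 1. Klf4, a factor of monocyte differentiation, rose by 2.34 ± 0.07, 1.43 ± 0.07 and 1.32 ± 0.07 in these comparisons. Mitf was lower by a log2 ratio of −1.83 ± 0.14 in males at day 3 and −0.82 ± 0.14 in females at day 5.

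Markers of resident Kupffer cells did not follow the 10 genes at day 3. At that time none of 12 was called higher and 6 were called lower, with a median of −0.48, whereas 10 were called higher in males at day 5 (median 1.03) and 7 in females at day 5 (median 0.63). Clec4f, a lectin restricted to Kupffer cells, had ratios of −1.94 and −2.51 in males at day 3 (−2.23 ± 0.13, adjusted p = 3.39e-05), against 1.14 and 0.84 in males at day 5 (0.99 ± 0.13, adjusted p = 0.00230). Vsig4, a complement receptor of Kupffer cells, had −1.90 ± 0.17 in males at day 3 and 0.63 ± 0.17 in males at day 5. Timd4, which binds phosphatidylserine on dying cells, had −1.05 ± 0.14 and 1.13 ± 0.14. The difference of day 5 minus day 3 was called higher for 11 of the 12 and lower for none, where 8.15% of all genes were called higher. The difference was 3.22 ± 0.18 for Clec4f (adjusted p = 9.03e-04), against −0.07 ± 0.10 for Gpnmb and 0.14 ± 0.18 for Chil3. The count of 10 in males at day 5 was 5 without replicate 1 and 6 without replicate 2 of that comparison, and the count of 11 was 7 and 4. The count of 6 lower at day 3 lay between 5 and 7 over all alternatives, and 2 of the 12 were called higher with median centring. One spot of Marco, a scavenger receptor in the list, was missing on a female array. Day and slide cannot be told apart in this difference either. The summed brightness of the 12 was 67499 and 68495 in the Adeno-Cux2 pools of males at day 3, against 71800 and 72850 in the Adeno-CMV pools. It was 126061 to 141569 in the Adeno-Cux2 pools of males at day 5, against 78083 to 86991 in the Adeno-CMV pools.

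Markers of neutrophils moved with the 10 genes in every virus comparison. Of 12 tested, 10 were called higher in males at day 3, 10 in males at day 5 and 10 in females at day 5, none was called lower, and the medians were 1.32, 2.07 and 1.45. The granule genes Camp and S100a8 rose by 2.20 ± 0.14 and 1.86 ± 0.12 in females at day 5, and Mpo, the myeloperoxidase of primary granules, by 2.54 ± 0.12 in males at day 3 and 1.80 ± 0.12 in females at day 5. The summed brightness of the 12 was 21294 to 24268 in Adeno-Cux2 pools of males at day 3, against 6676 to 9395 in Adeno-CMV pools. At day 5 in males it was 55265 to 59060 in Adeno-Cux2 pools, against 7028 to 8672 in Adeno-CMV pools. In females at day 5 it was 91139 to 112604 in Adeno-Cux2 pools, against 28037 to 33039 in Adeno-CMV pools. At least 11 of the 12 were well above background in every virus pool. The genes listed as monocyte markers were Ly6c1, Plac8, F13a1, Vcan, Fn1, Ms4a6c and Cd177, and not all of them are limited to monocytes. Of these 7, 5 were called higher and 1 lower in males at day 3. In males at day 5 and in females at day 5, 6 were called higher. Among them F13a1 rose by 2.41 ± 0.16, 1.51 ± 0.16 and 1.20 ± 0.16, and Plac8 by 2.09 ± 0.11, 1.93 ± 0.11 and 1.43 ± 0.11. The counts of 6 were 3 without either array in males at day 5 and 2 without replicate 1 in females at day 5, and none was lower without male day 3 replicate 2. The part of neutrophils in the ratios of Lyz2, Itgam and Chil3, which they share with macrophages, was not tested.

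**Figure D5:**
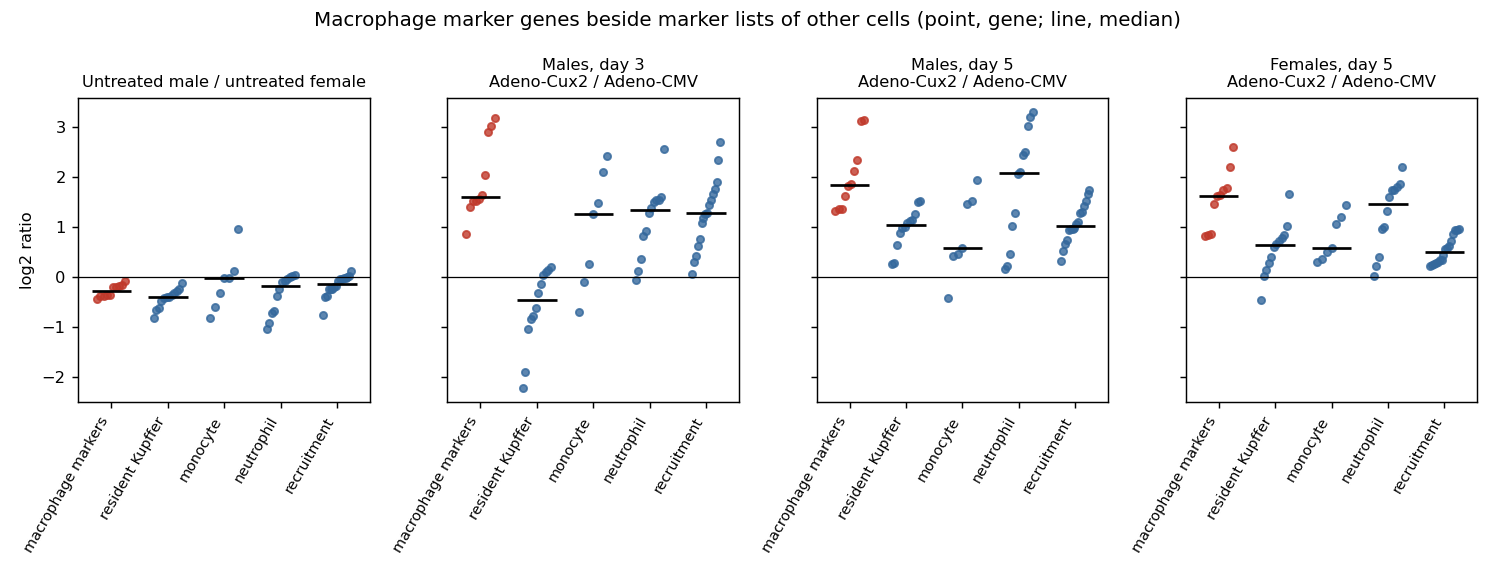
Log2 ratio (vertical axis) of the 10 macrophage marker genes (red) and of the genes of 4 lists (blue) in each comparison, 1 point per gene in rising order, with the median as a black line. In males at day 3 the resident Kupffer list has its median at −0.48 while the macrophage markers have theirs at 1.59, and in males at day 5 the medians are 1.03 and 1.84.

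The genes whose ratios over the 8 arrays were most like the median of the 10 genes were sought among 22201 other genes with a value on every array. They were Hpcal1 (Pearson r = 0.998), Sp110 (0.997), Ankrd13b (0.996), H19 (0.995) and Sp100 (0.995). H19, an imprinted non-coding RNA of fetal liver, had a ratio of 0.03 between untreated males and females. Its ratio was 1.77 in males at day 3, while at day 5 males had 1.92 and females 1.75. The 8 arrays fall into the untreated and the virus comparisons, and r describes mostly that separation.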

How the data were processed

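The deposited intensity values give, for the green and red channels, the median brightness over the pixels of a spot and over its surroundings, not normalized, per the file headers. They came from Agilent Feature Extraction, version 9.5.3.1 for one slide and 10.7.1.1 for the other, per the file headers. The deposited LogRatio is a log10 ratio of red over green made by that software, and the deposited series matrix holds the same log10 values turned to one direction. Other deposited columns are flags of 0 or 1 for spots well above background, saturated or outlying, per the file headers. Replicate 1 carried the first-named pool in red and replicate 2 in green, per the labels.

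From the deposited intensities, limma 3.58.1 (R 4.3.3, package data.table at 1.17.8) computed log2 ratios after normexp background correction (offset 50) and loess normalization of each array. Control and outlier spots were left out. No spot of the 15 probes was among them. A probe was tested if well above background in 1 channel on both arrays of a comparison. One model held the 4 comparisons and a dye term, which equals the replicate number, leaving 3 residual degrees of freedom, and the prior had 3.90. Tests were 2-sided with Benjamini-Hochberg adjustment over 33335 probes, and the call threshold was 0.05. Names came from RefSeq genes of GRCm38 (24375 probes by accession, 6301 by symbol, 2422 by synonym), and 8076 probes kept the name in the files. Coordinates are of mm8, as annotated on the array. Exons were not looked up, since no annotation of mm8 was used here.

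The members and lists were chosen with earlier results of these data known. Every member probe is named, and for each list up to 3 called genes with the largest ratio in a comparison could be named. Untreated females number 11 and experiments 3 in the series text, but 10 and 4 in the labels used here, and a purpose stated on the female arrays names males. Correlations of deviations between same-numbered arrays were −0.07 to 0.30. Whether replicate numbers pair the samples cannot be told from these, since the replicate number equals the dye direction. Alternatives covered the background step, normalization, filters, prior, dye term, arrays fitted and 1 probe per gene.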

Additional observations from a re-analysis of the deposited data

Results flagged for a closer look

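In 4 genes the response of males was called different between day 5 and day 3 by the test of the difference in the limma model. The difference of day 5 minus day 3 was −0.68 for the Itgam probe A_52_P669155 (adjusted p = 0.00831) and −0.57 for Lgals3 (adjusted p = 0.0492). It was 0.46 for the Itgax probe A_51_P303424 (adjusted p = 0.0261) and 0.46 for Lyz1 (adjusted p = 0.0290). The arrays of the 2 days lay on different slides, and day and slide cannot be told apart.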

How the results depend on the processing

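The brightest probe of every gene kept its direction and its call in males at day 3, males at day 5 and females at day 5 under all alternatives, and no probe's called ratio changed sign. Of the 14 probes without the dimmer Gpnmb one, 12 to 13 were called in males at day 5 with 1 array left out. In females at day 5 there were also 12 to 13, and in males at day 3 the same 13 each time. Without the replicate block (no dye term), 13, 12 and 13 were called in males at day 5, females at day 5 and males at day 3. There were 3 in untreated mice, 0 for females minus males and 3 for day 5 minus day 3. In untreated mice the count of 3 was 1 with a normexp offset of 10, 1 with the software's log ratios (Itgax A_52_P424887, called higher), 1 with median centring, 5 with the arrays of the same slide alone, 0 with the 2 arrays alone and 0 to 4 with 1 array left out. For day 5 minus day 3 the count of 4 was 2 with an offset of 10, 2 with median centring, 0 from the software's log ratios and 0 to 5 with 1 array left out. For females minus males the count of 0 was 0 to 1 with 1 array left out. The causes were not tested. Over all probes, 14311 were called in males at day 3 (7659 to 15899 with 1 array left out), 5599 in males at day 5 (1380 to 6873, and 8766 with its 2 arrays alone) and 5800 in females at day 5 (1636 to 7201, 3791 with its 2 arrays alone and 3379 from the software's log ratios). In untreated mice 3260 were called (687 to 5430 with 1 array left out), against 526 with the 2 arrays alone, 1391 from the software's log ratios, 1944 with no background step and 2024 with median centring. For day 5 minus day 3 there were 4018 (135 to 5446, and 579 from the software's log ratios). For females minus males there were 67 (0 to 106), against 0 from the software's log ratios, 2 with no background step, 16 with the offset of 10, and 30 higher and 77 lower with an intensity trend in the prior. The dim Gpnmb probe A_52_P417819 is limited by background. The size of other ratios also moved with the processing. In males at day 5 the brighter Gpnmb probe lay between 1.88 and 3.73 over the alternatives. The dimmer Itgam probe lay between 0.18 and 1.42 there, and the brighter Lyz2 probe between 1.75 and 1.89. With 2 arrays per comparison the pools limit every value as well.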

Other observations

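Other cells of the liver were counted from marker lists in the same fit. Among all genes 23.9% were called higher in males at day 3, 13.8% in males at day 5 and 12.7% in females at day 5. Called lower were 20.3%, 4.82% and 6.25% in the same order. Of 9 stellate cell markers 6 were called higher in males at day 3, 7 in males at day 5 (2 without either array of that comparison) and 7 in females at day 5 (2 without replicate 1). The collagen gene Col1a1 rose by 1.89 ± 0.19, 1.87 ± 0.19 and 1.71 ± 0.19 in these comparisons. Of 7 natural killer cell markers 7, 6 and 3 were called higher (the 3 became 0 without female day 5 replicate 1 and 1 without replicate 2 or either male day 5 array), with Gzma, a granzyme of cytotoxic cells, at 1.44 ± 0.13, 1.63 ± 0.13 and 0.61 ± 0.13. Of 9 dendritic cell markers 2 were called higher and 1 lower in males at day 3, 5 higher in males at day 5, and 3 higher and 1 lower in females at day 5. Without either array of the comparison itself, 1, 2 and 1 were called higher. The MHC class II gene H2-Ab1, which macrophages also make, rose by 1.43 ± 0.07 in males at day 5 and 0.75 ± 0.07 in females at day 5. Of 8 T and B cell markers tested in these scid mice, Cd3e was called lower in males at day 3 (−0.23 ± 0.06), and Cd3d (0.53 ± 0.12) and Cd79b (0.27 ± 0.07) higher in males at day 5. Each of these calls ended without either array of its comparison. Of 9 hepatocyte markers 5 were called lower in males at day 3, with Cyp2e1 at −2.49 ± 0.08 (2 and 3 without replicate 1 and replicate 2). At day 5, 2 were called higher and 1 lower in males (median 0.23, and 0 of either without either array of that comparison), and 3 higher and 2 lower in females (median 0.37, and 1 higher without replicate 2 and 1 lower without replicate 1). The difference of day 5 minus day 3 in males was called higher for 4 and lower for none, where 8.15% of all genes were called higher. Without any one of the 4 male arrays 1 or 2 were called higher. Of 5 pan-leukocyte genes 4 were called higher in each virus comparison.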
